A study of Mus musculus with 57 samples.

Results

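The 10 genes described here are markers of deep-layer excitatory neurons of the cerebral cortex, the projection neurons of layers 5 and 6 and of the subplate-derived layer 6b. They were taken as the rows of the deposited expression table whose Ensembl identifiers map to Bcl11b, Fezf2, Etv1, Tbr1, Foxp2, Tle4, Syt6, Sox5, Nr4a2 and Crym. All 10 were found among the 18088 listed genes, and all 10 passed the filter on low values that 18026 genes passed.

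Deep-layer neurons send the axons that leave the cortex. Those of layer 5 project to the brainstem, spinal cord and striatum, and those of layer 6 project mainly to the thalamus. Their identity is set by transcription factors that act on each other in the developing cortex: Fezf2 and its downstream factor Bcl11b (CTIP2) mark the subcerebral fate, and Tbr1 and Sox5 mark the corticothalamic fate and restrain the subcerebral program in layer 6.

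Poly(A) RNA of the prefrontal cortex of C57BL/6J mice was sequenced. The mice carried either 2 normal copies of Shank3 (wild type, WT) or 1 Shank3 delta C allele (heterozygous, HT), and the gene encodes a scaffold of the excitatory postsynaptic density. Pups received vehicle, lithium (a mood stabiliser) or fluoxetine (a serotonin reuptake inhibitor) through the milk of their mothers for 3 weeks, from postnatal day 3 to 24, and tissue was taken on postnatal day 25. The 12 groups of genotype, drug and sex held 5 libraries each in 9 cases, 4 in WT lithium females and in HT lithium males and 3 in HT vehicle males, 56 libraries in all. The drugs reached the pups through the dam, the labels name neither a dose nor a litter, and the tests treat the mice as independent although pups of a litter shared its milk.

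The promoters of Tbr1, Fezf2 and Syt6 are shown because these 3 genes carry a clear pattern among the 10 genes described here. Tbr1 and Fezf2 moved together from library to library, and Syt6 moved against them. Each run is the RefSeq window of 300 bases on GRCm38.p6, with 250 bases before and 50 after the start of a transcript, read 5′ to 3′ on the strand of the gene. Capitals mark the E-box, searched as CANNTG on both strands, the core motif of basic helix-loop-helix factors such as the neurogenins and NeuroD proteins.
Tbr1, chr2:61804203-61804502, plus strand: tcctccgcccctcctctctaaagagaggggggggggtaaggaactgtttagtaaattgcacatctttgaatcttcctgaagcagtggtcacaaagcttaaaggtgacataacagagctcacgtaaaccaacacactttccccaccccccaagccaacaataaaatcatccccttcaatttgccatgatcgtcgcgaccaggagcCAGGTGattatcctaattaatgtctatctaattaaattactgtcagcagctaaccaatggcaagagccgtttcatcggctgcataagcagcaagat
Fezf2, chr14:12345816-12346115, minus strand: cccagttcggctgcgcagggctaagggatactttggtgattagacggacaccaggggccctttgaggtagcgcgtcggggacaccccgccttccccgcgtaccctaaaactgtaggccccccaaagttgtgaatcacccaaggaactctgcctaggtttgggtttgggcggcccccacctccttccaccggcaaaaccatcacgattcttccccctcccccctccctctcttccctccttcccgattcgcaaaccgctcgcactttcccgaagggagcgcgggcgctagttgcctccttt
Syt6, chr3:103574995-103575294, plus strand: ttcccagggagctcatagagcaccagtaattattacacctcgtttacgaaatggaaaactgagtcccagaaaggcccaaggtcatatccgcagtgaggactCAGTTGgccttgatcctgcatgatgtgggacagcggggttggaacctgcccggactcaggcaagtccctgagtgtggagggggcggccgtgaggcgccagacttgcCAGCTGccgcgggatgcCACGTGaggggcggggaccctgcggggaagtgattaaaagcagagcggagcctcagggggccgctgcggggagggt
The Tbr1 window held 1 E-box, the printed Syt6 window 3 and the Fezf2 window 0. Syt6 has 3 RefSeq windows, with 3, 3 and 2 E-boxes, of which the most upstream is printed. An E-box was in 72.32% of all 32817 windows of the same length, so these matches are a description only. RefSeq windows were found for 8 of the 10 genes.

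Every member was detected in every library, and the tissue carried the general marker of cortical excitatory neurons. Slc17a7, the vesicular glutamate transporter of these neurons, lay between 28646 and 61297 normalised counts (the gene's counts divided by the library's size factor). Recovered reads numbered 22984556 to 35969254 per library. A bulk library cannot tell fewer cells of a type from less RNA per cell, which holds for each value below. Libraries differed widely in genes of the olfactory bulb, a region that lies in front of the prefrontal cortex. Eomes, a T-box factor of its mitral and tufted cells, ranged from 0 to 1317 normalised counts and was at 0 in 3 libraries, and Doc2g ranged from 98.6 to 4584. The sum of Eomes, Doc2g, Cdhr1, Th and Trh ranged from 239 to 14785, with its lowest group mean in HT lithium males (459 ± 255, SD, n = 4) and its highest in WT fluoxetine females (7559 ± 6903, SD, n = 5). Because this spread touches several members, it is set beside their values below.

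Among the members, the 2 most abundant per kilobase of longest transcript were Tbr1, the T-box factor of layer 6, and Crym, a thyroid hormone-binding protein of layers 5 and 6. Their mean levels over the 56 libraries were 879 ± 167 and 831 ± 170 normalised counts per kilobase (SD). Etv1, an ETS factor of layer 5, followed at 441 ± 64.9 per kilobase. The zinc finger factor Fezf2 was at 328 ± 73.2 per kilobase. Each of these stood above the next in most libraries: Tbr1 above Crym in 38 of 56, Crym above Etv1 in 53 and Etv1 above Fezf2 in 48.

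The middle of the order was close. Tle4, a Groucho-family corepressor of corticothalamic neurons, lay at 277 ± 44.9 per kilobase (SD, n = 56), Syt6, a synaptotagmin, at 269 ± 144, and Bcl11b, a zinc finger factor, at 264 ± 52.4. Syt6 was above Bcl11b in 17 of 56 libraries although its mean was higher, so these neighbours are not ordered beyond their spread. Sox5, an SRY-related factor, lay at 197 ± 23.4 per kilobase and Nr4a2, an orphan nuclear receptor of layer 6b that is also an immediate early gene, at 158 ± 70.0. Foxp2, a forkhead factor of layer 6, was lowest at 46.2 per kilobase and was below Nr4a2 in 56 of 56 libraries.

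The members also differed in how far they varied. Across the 56 libraries the coefficient of variation of the normalised count was 11.9% in Sox5, 14.7% in Etv1 and 53.6% in Syt6, with Nr4a2 at 44.3% and Foxp2 at 30.8%. Syt6 ran from 555 to 3486 normalised counts, and the 2 ends of that range were WT fluoxetine females. The share of the log2 variance that lay between the 12 groups was 13.7% in Etv1, the lowest, and 33.0% in Foxp2, the highest. When the 12 group means of a member were put in order, no neighbouring means were apart by more than the larger of their SDs, in any of the 10 members.

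**Figure D1:**
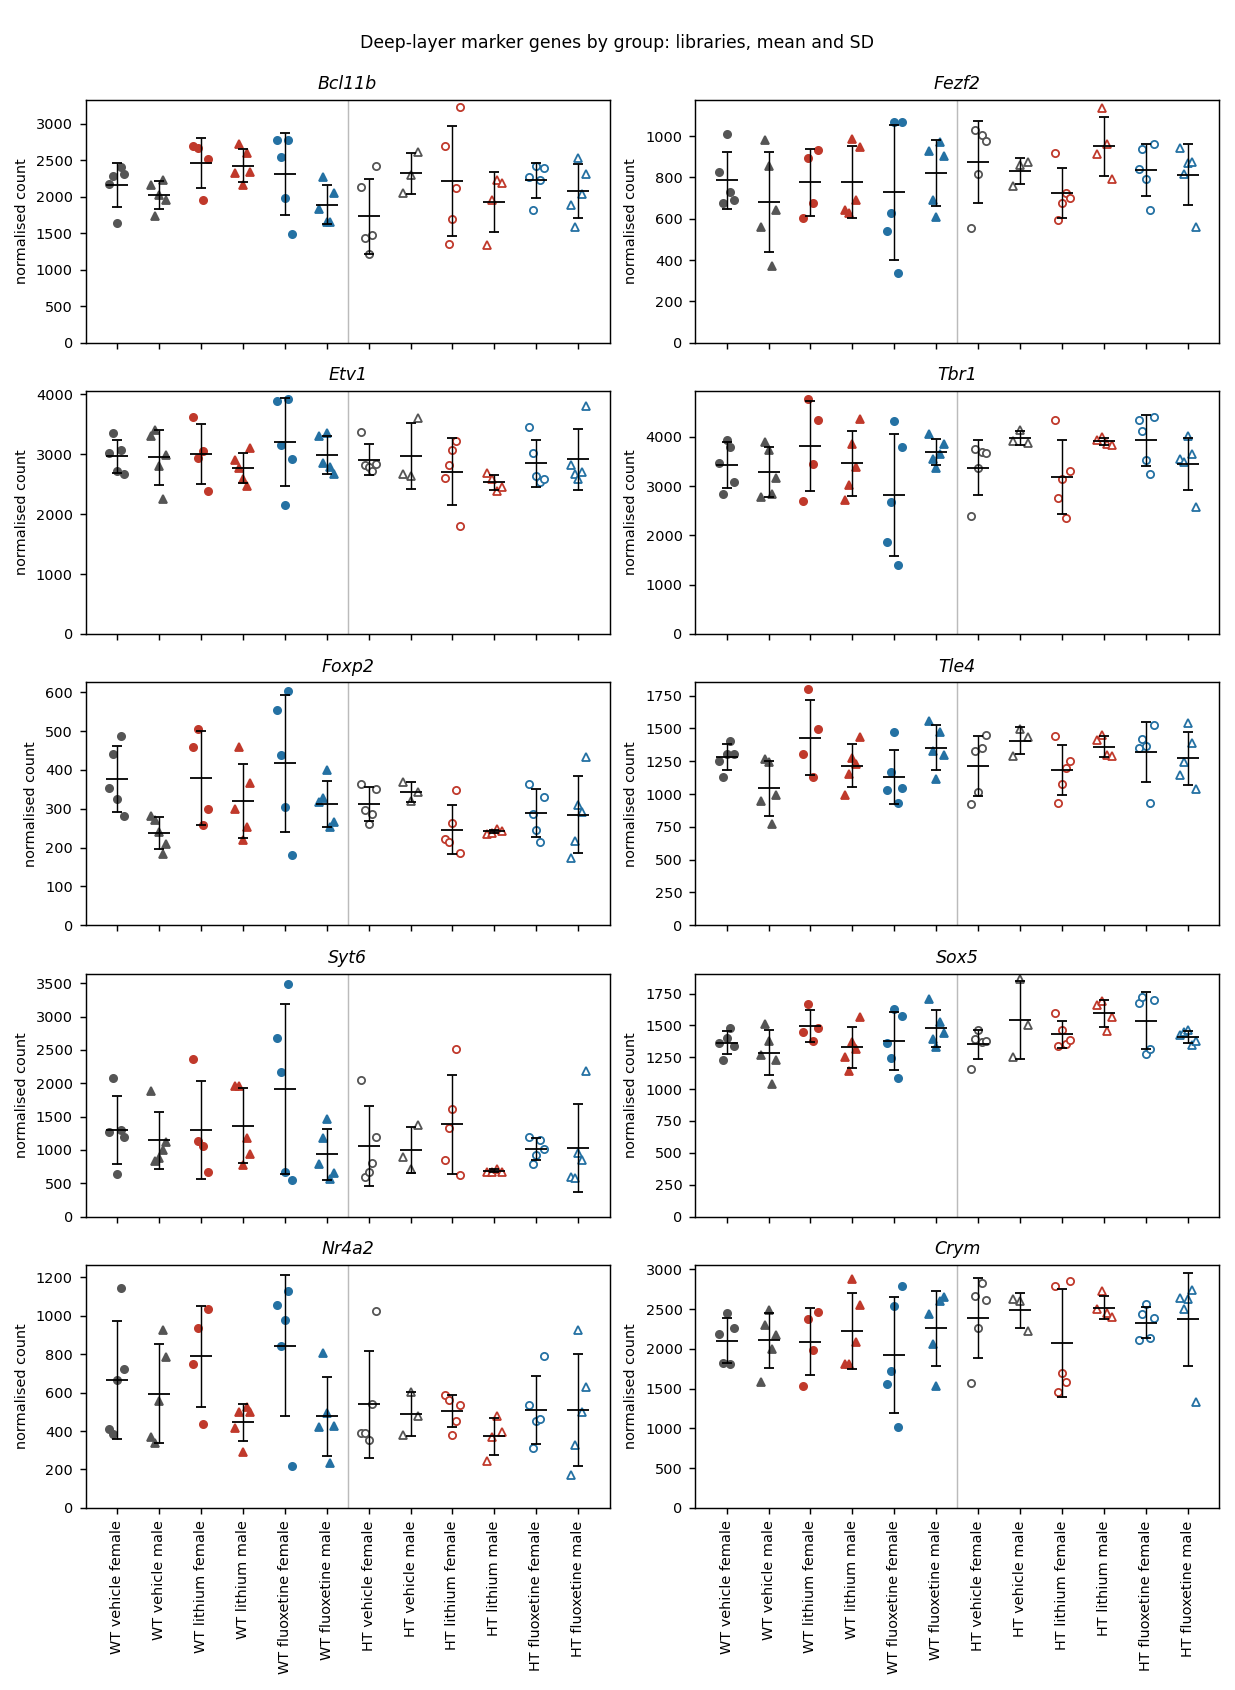
Normalised counts (y axis, from 0) of the 10 members in the 12 groups (x axis), with 1 symbol per library and the group mean ± SD in black; circles are females, triangles males, filled symbols WT and open symbols HT, in grey for vehicle, red for lithium and blue for fluoxetine. Syt6 in WT fluoxetine females spans 555 to 3486, while the 4 HT lithium males lie between 671 and 721.

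The highest and lowest group means fell on several groups. WT fluoxetine females had the highest mean of Syt6 (1911 ± 1275, SD, n = 5), Etv1 (3212 ± 736), Foxp2 (417 ± 175) and Nr4a2 (845 ± 367), and the lowest mean of Tbr1 (2812 ± 1235) and Crym (1924 ± 728). HT lithium males had the lowest mean of Syt6 (685 ± 23.5, SD, n = 4), Etv1 (2532 ± 131) and Nr4a2 (372 ± 97.5), and the highest of Fezf2 (951 ± 142), Sox5 (1594 ± 109) and Crym (2520 ± 147). WT vehicle males had the lowest mean of Fezf2 (682 ± 241, SD, n = 5), Foxp2 (237 ± 41.7), Tle4 (1044 ± 211) and Sox5 (1285 ± 176). The highest means of Bcl11b (2458 ± 341) and Tle4 (1431 ± 287) were in WT lithium females (n = 4), that of Tbr1 (3975 ± 149) in HT vehicle males (n = 3), and the lowest of Bcl11b (1733 ± 512) in HT vehicle females (n = 5). The summed olfactory bulb genes had their highest group mean in WT fluoxetine females and their lowest in HT lithium males, while WT vehicle males, at 4002 ± 2713, were at neither end, and the part of these genes in the members' group means was not tested.

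Lithium against vehicle was the first drug comparison, with the sexes averaged within each genotype. In WT mice no member was called by limma-trend at an adjusted p below 0.05, while 11.7% of all tested genes were called. No member had an unadjusted p below 0.05 by limma-trend or edgeR, where 25.5% of all tested genes did by limma-trend, and edgeR called 0 members. The members' log2 fold changes had a median of 0.10, from -0.04 in Etv1 to 0.23 in Bcl11b, beside a median of 0.00 over all tested genes, and 8 of 10 were above 0. Bcl11b, the marker of subcerebral neurons, lay between 1961 and 2717 normalised counts in the 9 WT lithium libraries (median 2511) and between 1640 and 2405 in the 10 WT vehicle libraries (median 2161). The 2 ranges overlap, and the log2 fold change of 0.23 ± 0.13 (SE) had an adjusted p of 0.272 in limma-trend.

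In HT mice no member was called for lithium either, where 9.77% of all tested genes were called. The members' median log2 fold change was -0.06, from -0.43 in Foxp2 to 0.07 in Sox5, and 2 of 10 were above 0. The count at an unadjusted p below 0.05 was 1 by limma-trend and 1 by edgeR, beside 23.5% of all tested genes by limma-trend, and edgeR called 0.

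Foxp2 was the member with that p. Its normalised counts in HT vehicle females were 364, 296, 260, 287 and 351, and in HT lithium females 221, 213, 263, 349 and 185. In HT vehicle males they were 370, 319 and 343, and in HT lithium males 236, 239, 247 and 244. The 4 lithium males all lie below the 3 vehicle males, and in females the groups overlap, with 3 of the 5 lithium libraries below the lowest vehicle library. The log2 fold change over both sexes was -0.43 ± 0.18 (SE, 95% confidence interval -0.80 to -0.07), with an adjusted p of 0.125 in limma-trend over all 12 groups. Fitted on the compared groups alone, the same change had an adjusted p of 0.0215 in limma-trend. Without the 14 libraries of highest olfactory bulb score it was -0.53 with an adjusted p of 0.0216. That cut removed HT lithium female replicates 2, 3 and 4 and HT vehicle female replicate 1. Of the lithium females it left only replicates 1 and 5, at 221 and 185. Foxp2 itself rose with this score, so the cut was not independent of the Foxp2 values. The summed olfactory bulb genes had a mean of 459 ± 255 (SD, n = 4) in HT lithium males, 1798 ± 1660 (n = 3) in HT vehicle males, 4590 ± 4135 (n = 5) in HT lithium females and 2984 ± 3566 (n = 5) in HT vehicle females, and their part in the Foxp2 values was not tested.

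The genotype difference of the lithium effect, HT minus WT, was below 0 in all 10 members, with a median of -0.15. It shares each member's 4 sets of libraries with the comparisons above and is therefore no separate observation. Foxp2 had the lowest value, -0.62 ± 0.25 (SE), with an unadjusted p of 0.0152 and an adjusted p of 0.431 in limma-trend. No member was called by limma-trend or edgeR, 1 had an unadjusted p below 0.05 by each tool, and of all tested genes 0.0166% were called and 9.5% had such a p by limma-trend.

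Fluoxetine against vehicle gave no called member in either genotype. In WT mice 5.18% of all tested genes were called, and the members' median log2 fold change was 0.02, from -0.11 in Tbr1 to 0.22 in Foxp2. In HT mice 0% of tested genes were called, and the median was -0.03, from -0.23 in Foxp2 to 0.11 in Bcl11b. The count of members at an unadjusted p below 0.05 was 0 in both, by limma-trend and by edgeR, beside 19.6% of all tested genes in WT and 7.25% in HT by limma-trend.

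Syt6 under fluoxetine shows how wide the spread within a group could be. Its normalised counts in WT fluoxetine females were 2674, 2167, 673, 3486 and 555, and in WT vehicle females 1269, 2075, 634, 1303 and 1198. Replicates 1, 2 and 4 of the fluoxetine females are above every vehicle female, and replicate 5 is below them all. In WT fluoxetine males the counts were 792, 1183, 1462, 560 and 661, and in vehicle males 1881, 830, 884, 998 and 1119, so the ranges overlap. The log2 fold change over both sexes was -0.01 ± 0.29 (SE) with an adjusted p of 0.994 in limma-trend. With the olfactory bulb score as a covariate the value turned to 0.29 ± 0.09 with an adjusted p of 0.0177. Without the 14 libraries of highest score it was -0.55 ± 0.18 with an adjusted p of 0.0488. That cut removed WT fluoxetine female replicates 1, 2 and 4 and left replicates 3 and 5, at 673 and 555. It also removed WT fluoxetine male replicate 3, WT vehicle female replicate 2 and WT vehicle male replicate 1. Syt6 itself followed this score closely, so neither the covariate nor the cut was independent of the Syt6 values.

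**Figure D2:**
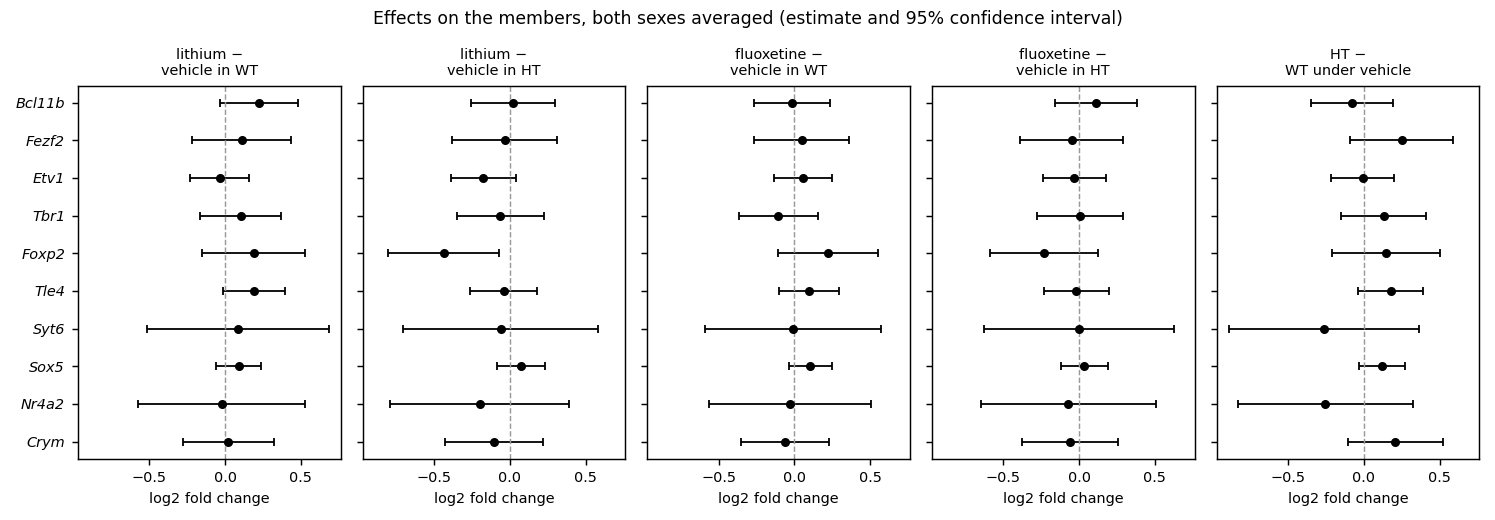
Log2 fold change of each member (points, x axis) with its 95% confidence interval (lines) in 5 comparisons averaged over both sexes, from limma-trend over all 12 groups. The Foxp2 interval for lithium in HT, -0.80 to -0.07, leaves out 0 before adjustment over all genes, and Syt6 and Nr4a2 have the widest intervals.

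HT against WT was compared under each treatment. Under vehicle, lithium and fluoxetine alike 0% of all tested genes were called by limma-trend, and no member was called by limma-trend or edgeR. Under vehicle the members' median log2 difference was 0.13, from -0.27 in Syt6 to 0.25 in Fezf2, and 0 members had an unadjusted p below 0.05 by either tool, beside 6.21% of all tested genes by limma-trend. Under lithium the median was -0.10, and 2 members had an unadjusted p below 0.05 by limma-trend, Foxp2 at -0.48 ± 0.17 (SE, adjusted p = 0.385) and Bcl11b at -0.28 ± 0.13 (adjusted p = 0.473), against 1 by edgeR. Of all tested genes 9.82% had such a p by limma-trend. Under fluoxetine the median was 0.05, from -0.31 in Foxp2 to 0.24 in Tbr1, with 0 members at an unadjusted p below 0.05 by limma-trend and 1 by edgeR, beside 11.2% of all tested genes by limma-trend. The genotype difference of the fluoxetine effect had a median of -0.06 over the members, 0 members at an unadjusted p below 0.05 by either tool (3.52% of all tested genes by limma-trend), and 0% of all tested genes called.

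The precision of these values differed by gene. Over the 4 drug effects and the 3 comparisons of HT with WT, the 95% confidence interval reached 0.14 on either side of the estimate at its narrowest, in Sox5, and 0.64 at its widest, in Syt6. In the genotype differences of the drug effects the widest reached 0.88 for lithium and 0.85 for fluoxetine. In Syt6 and Nr4a2, effects as small as those estimated for the other members were not detectable at this spread.

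Males and females differed in 0.283% of all tested genes, and no member was called by limma-trend or edgeR. Nr4a2 had the lowest log2 difference, male minus female, of -0.39 ± 0.16 (SE, adjusted p = 0.294 in limma-trend). It ranged from 171 to 928 normalised counts in 27 males (median 477) and from 218 to 1142 in 29 females (median 542), with wide overlap. Members at an unadjusted p below 0.05 numbered 1 by limma-trend and 3 by edgeR, beside 12.9% of all tested genes by limma-trend.

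The sexes were also compared in their response to fluoxetine. In WT mice 7.74% of all tested genes had a called sex difference of the fluoxetine effect, male minus female, and no member was called by limma-trend or edgeR, with 2 members at an unadjusted p below 0.05 by limma-trend and 1 by edgeR, beside 24.7% of all tested genes by limma-trend. Tle4 had 951, 1267, 1246, 768 and 990 normalised counts in WT vehicle males and 1557, 1329, 1112, 1472 and 1299 in fluoxetine males. In WT vehicle females it had 1250, 1133, 1308, 1403 and 1306, and in fluoxetine females 1033, 1169, 1469, 931 and 1045. Of the 5 fluoxetine males 4 lie above every vehicle male, and 3 of the 5 fluoxetine females lie below every vehicle female. The sex difference was 0.58 ± 0.20 (SE, adjusted p = 0.0557), and leaving out single libraries moved that p to either side of 0.05.

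Tbr1 had the next lowest p in that comparison, with a sex difference of 0.58 ± 0.26 (SE, adjusted p = 0.153). Its fluoxetine females had 1873, 2671, 4310, 1405 and 3799 normalised counts and its fluoxetine males 4048, 3547, 3362, 3660 and 3844. Replicates 1, 2 and 4 of the females lie below every fluoxetine male, and these are libraries among the 14 of highest olfactory bulb score. In vehicle females Tbr1 lay between 2831 and 3934 and in vehicle males between 2786 and 3889, which overlap. Of the 30 other deep-layer genes 2 were called in this comparison, where the share over all tested genes was 7.74%. Npr3, a natriuretic peptide receptor, was at 0.70 ± 0.19 (SE, adjusted p = 0.0195 in limma-trend) and Rxfp1, a relaxin receptor, at 0.69 ± 0.22 (adjusted p = 0.0485). edgeR called 1 of the 30.

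Other sex differences were tested in the same way. For lithium in WT 0% of tested genes were called, and 0 members had an unadjusted p below 0.05 by limma-trend or edgeR, beside 8.63% of all tested genes by limma-trend. For lithium in HT 0.172% of tested genes were called and no member by limma-trend or edgeR, with 1 member at an unadjusted p below 0.05 by each and 8.85% of all tested genes by limma-trend. Bcl11b had normalised counts of 2701, 1358, 1688, 2122 and 3226 in HT lithium females, 2127, 1432, 1218, 1470 and 2417 in HT vehicle females, 1333, 1951, 2226 and 2184 in HT lithium males and 2050, 2296 and 2617 in HT vehicle males. The groups overlap within each sex, and the sex difference was -0.63 ± 0.28 (SE, adjusted p = 0.488). For fluoxetine in HT 0.0277% of tested genes were called and no member, with Bcl11b at -0.58 ± 0.27 (adjusted p = 0.720). Members at an unadjusted p below 0.05 in that comparison numbered 1 by limma-trend and 0 by edgeR, which also called 0, beside 6.62% of all tested genes by limma-trend.

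Under vehicle, the sex difference of the genotype effect was above 0 in all 10 members, with a median of 0.24. The median over all tested genes was -0.0025, and 0% of them were called. The members share the same libraries, with only 3 HT vehicle males, and several are related to each other. The 10 values are therefore not separate observations. Foxp2 had normalised counts of 282, 271, 241, 183 and 208 in WT vehicle males and 353, 440, 325, 488 and 280 in WT vehicle females. WT males lie below WT females apart from a narrow overlap, and the HT vehicle groups given above overlap. Its sex difference was 0.81 ± 0.35 (SE, adjusted p = 0.516 in limma-trend). Members at an unadjusted p below 0.05 numbered 3 by limma-trend and 2 by edgeR, beside 8.73% of all tested genes by limma-trend, and no member was called by either.

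Of the 30 other deep-layer genes on the list, 2 rose and 1 fell with lithium in WT mice, where 11.7% of all tested genes were called. Bcl6, a repressor of Notch targets, rose by 0.28 ± 0.07 on the log2 scale (SE, adjusted p = 0.00780 in limma-trend), Crim1, a transmembrane protein of corticospinal neurons, rose by 0.18 ± 0.06 (adjusted p = 0.0397), and Lxn, a carboxypeptidase inhibitor, fell by 0.25 ± 0.07 (adjusted p = 0.0206). With lithium in HT mice 0 of 30 were called by limma-trend or edgeR (4 and 3 at an unadjusted p below 0.05), where 9.77% of all tested genes were called, and Pcp4, a calmodulin-binding peptide, stood at -0.23 ± 0.09 (adjusted p = 0.107). With fluoxetine 0 of 30 were called in either genotype by either tool, where 5.18% of all tested genes were called in WT and 0% in HT, with 6 at an unadjusted p below 0.05 in WT and 0 in HT by each. Of 20 upper-layer genes, lithium in WT mice gave 1 called higher (Stard8, 0.34 ± 0.07, adjusted p = 0.000395) and 2 called lower (Nectin3, -0.58 ± 0.10, adjusted p = 0.000157, and Dkkl1, -0.32 ± 0.11, adjusted p = 0.0422), beside the same 11.7% of all tested genes. With lithium in HT mice 2 of the 20 rose, Stard8 by 0.35 ± 0.07 (adjusted p = 0.00109) and Cux2, a homeobox factor of upper layers, by 0.37 ± 0.10 (adjusted p = 0.0114). With fluoxetine 1 of the 20 rose in WT mice, Stard8 by 0.28 ± 0.06 (adjusted p = 0.00568). The difference between the deep and the upper lists was not tested.

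The clearest structure among the members lay between libraries of the same group. After the group means were removed from log2(value + 1), Pearson's r was computed over 56 libraries for the 45 pairs of members, with 100000 permutations each. Of these pairs 18 were positive and 12 negative at an adjusted permutation p below 0.05. Fezf2, Tbr1, Crym, Tle4 and Sox5 formed a set that rose and fell together, and Syt6, Etv1 and Foxp2 formed another.

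In the first set, Fezf2 and Tbr1 had r = 0.86 (Spearman's rho 0.87, adjusted permutation p = 2.5e-05, from the smallest p the permutations can give). The value was 0.82 without the 2 farthest libraries, 0.92 in females and 0.82 in males. Tbr1 and Crym had r = 0.83, and Tle4 and Sox5 had r = 0.68. The ratio of Fezf2 to Tbr1 normalised counts stayed between 0.132 and 0.309 over the 56 libraries, with a coefficient of variation of 13.6%. The coefficient of variation was 22.3% in Fezf2 and 19.0% in Tbr1, so the ratio of Fezf2 to Tbr1 varied less over these libraries than either gene. This did not hold between the subcerebral factors. The ratio of Bcl11b to Fezf2 ran from 1.39 to 8.21, with a coefficient of variation of 41.9%, beside 19.9% in Bcl11b alone.

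In the second set, Syt6 ran against Crym and Tbr1 of the first, but not every pair across the sets was called negative. Syt6 and Foxp2 had r = 0.76 (rho 0.71) and Etv1 and Syt6 r = 0.71 (rho 0.64), each with an adjusted permutation p of 2.5e-05. Crym and Syt6 had r = -0.88 (rho -0.87), and Tbr1 and Syt6 r = -0.79 (rho -0.71), although Syt6 and Tbr1 are both named as markers of corticothalamic neurons. The ratio of Syt6 to Tbr1 ranged from 0.146 to 2.48, with a coefficient of variation of 97.2%, and both ends were WT fluoxetine females, replicates 5 and 4. Bcl11b and Nr4a2 were joined to each other, with r = 0.59 (rho 0.58, adjusted permutation p = 2.5e-05).

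**Figure D3:**
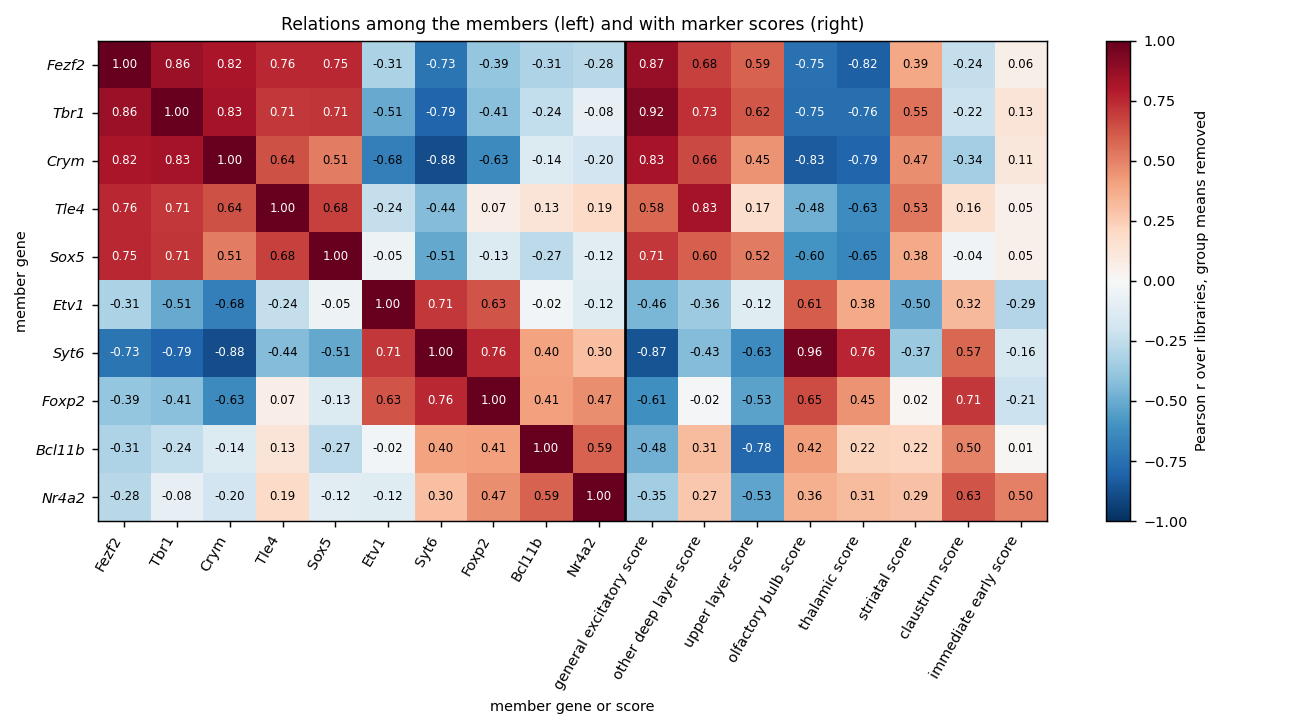
Pearson's r over 56 libraries after removal of group means, among the 10 members (left of the black line) and between members and 8 marker scores (right of it), with red for positive and blue for negative values. Fezf2, Tbr1, Crym, Tle4 and Sox5 form a positive block, and Syt6 has r = -0.88 with Crym and 0.96 with the olfactory bulb score.

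Marker content of other regions was then set beside the members. A score was the mean over a list's genes of the standardised log2 value, and 4 scores (olfactory bulb, striatum, upper layers, thalamus) gave 40 relations with the members over 56 libraries. The olfactory bulb scores ran without a wide break from -1.71 to 1.72 before removal of group means, with a largest gap of 0.28. After that removal, as used for r, they ran from -2.06 to 1.64, with a largest gap of 0.40. In relations with scores, the 2 farthest libraries were chosen on the score before the removal. All 10 members were related to this score at an adjusted permutation p below 0.05, 5 positively and 5 negatively. Syt6 had r = 0.96 (rho 0.96, adjusted permutation p = 2.35e-05), and r = 0.95 without the 2 farthest libraries, 0.97 in females and 0.93 in males. Crym had r = -0.83 (rho -0.83), Tbr1 -0.75 and Fezf2 -0.75. Sox5 had r = -0.60 and Tle4 -0.48, while Foxp2 had 0.65, Etv1 0.61 and Bcl11b 0.42. Nr4a2 had r = 0.36, with a rho of 0.26 that missed the threshold (adjusted permutation p = 0.0648).

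Syt6 had the highest r with this score of the 10 members, and the members of the first set all had negative values. Tbr1, Etv1 and Nr4a2 are themselves known in cell types of the olfactory bulb, and Bcl11b in striatal projection neurons, so a member's level is not specific to deep cortical layers. The thalamic score had 9 called relations, 4 positive and 5 negative, and Fezf2 had r = -0.82 with it. Before removal of group means, WT fluoxetine female replicate 4 was highest in both the thalamic score (1.36) and the olfactory bulb score (1.72). Relations of the scores to each other were not tested. Etv1 differed by sex in this relation, with r = 0.67 in females and -0.14 in males, a difference that was not tested. The striatal score had 8 called relations, with Tbr1 at 0.55, Tle4 at 0.53 and Etv1 at -0.50. This score had a wider largest gap, 0.83 before and 0.50 after removal of group means. Its highest library, WT lithium female replicate 2 (1.61 before removal), also had the highest Tbr1 (4757) and Tle4 (1798) of all libraries.

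Bcl11b showed another pattern. Its r with the upper-layer score was -0.78 (rho -0.79, adjusted permutation p = 2.35e-05), and -0.78 without the 2 farthest libraries, -0.81 in females and -0.72 in males. Nr4a2 had r = -0.53 with that score, and Tbr1 and Fezf2 had r = 0.62 and 0.59. The upper-layer score had 8 called relations, 4 positive and 4 negative. Etv1 was not called with it (r = -0.12), and its value was -0.28 in females and 0.32 in males.

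**Figure D4:**
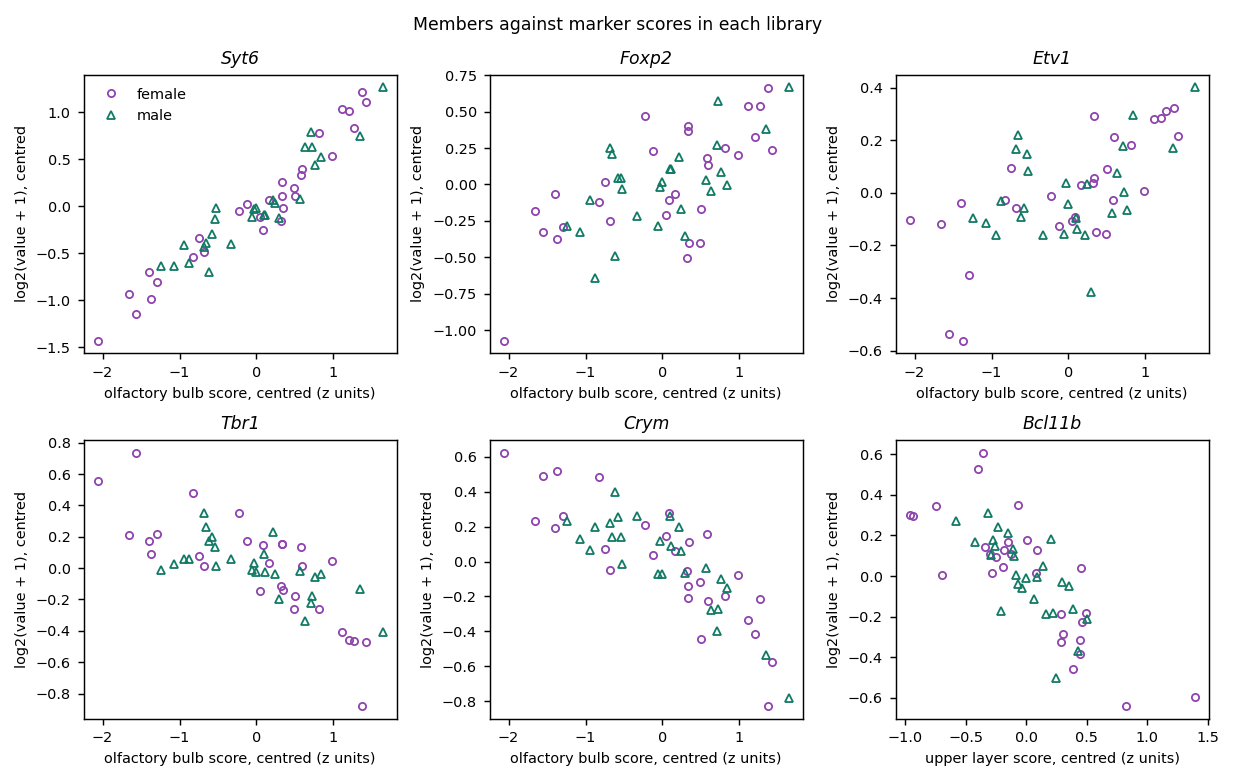
Log2(value + 1) of 6 members (y axes) against a marker score in z units (x axes), both after removal of the group mean, with 1 symbol per library, circles for females and triangles for males. Syt6 follows the olfactory bulb score with r = 0.96, Tbr1 and Crym fall with it (r = -0.75 and -0.83), and Bcl11b falls with the upper-layer score (r = -0.78).

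WT fluoxetine female replicate 4 had the highest olfactory bulb score before removal of group means (1.72). It had the lowest normalised counts of Tbr1 (1405), Fezf2 (338), Crym (1019) and Slc17a7 (28646), and the highest of Syt6 (3486), Foxp2 (604) and Doc2g (4584). Its neighbour in the same group, replicate 5, had the highest Slc17a7 (61297) and the lowest Syt6 (555). After removal of group means the score was highest in HT fluoxetine male replicate 5 (1.64) and lowest in WT fluoxetine female replicate 5 (-2.06).

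Genes whose library-to-library pattern was most like that of a member were sought among 12487 tested genes with a mean value of at least 100, by Pearson's r over the 56 libraries after removal of group means, as a description without a test. The nearest to Syt6 were Lrrc55, Gng4 and Gad1, each at r = 0.98. The nearest to Tbr1 was Rab6b (0.96), to Crym Spryd3 (0.94), to Fezf2 Diras2 (0.93) and to Etv1 Stxbp6 (0.90). Bcl11b was nearest to Sez6 (0.87), Tle4 to Oprk1 (0.87), Foxp2 to Cntnap4 (0.86) and Sox5 to Slitrk5 (0.80). Nr4a2 had the weakest nearest gene, Sema5b (0.73), and Fosb, an immediate early gene, was also at 0.73. Nxph3, a neurexophilin on the list of other deep-layer genes, was next to Oprk1 in likeness to Tle4, at 0.84.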

How the data were processed

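Stranded TruSeq mRNA libraries were made from mouse prefrontal cortex, per the labels' protocols. The authors deposited a signal: each gene's count scaled by the size factor of its library. The submitters' processing notes name Salmon 0.11.2, R 3.6.0, DESeq2 1.19.11 and GRCm38, with no role or order. Of 59 columns 56 matched a labelled sample and 3 that matched none were not used. Of the 57 labelled samples 1, a WT lithium female, was not analysed here. Whole reads were recovered (100% of values within 1e-06 of a whole number). In 105 pairs of libraries of a group, counts differed by more than sampling noise (smallest chi-square per degree of freedom 4.94).

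Values were analysed as log2(value + 1), which understates changes of low genes. Genes at 10 or more in at least 3 libraries (18026) were fitted together over all 12 groups by limma-trend (limma 3.58.1 in R 4.3.3) with 44 residual degrees of freedom. The 15 comparisons are two-sided contrasts of group means, and a call is a p below 0.05 after Benjamini-Hochberg adjustment over all tested genes. edgeR 4.0.16 (quasi-likelihood) was run on the recovered reads. The fits were tested on simulated data. Relations used Pearson's r and Spearman's rho with 100000 permutations, two-sided and adjusted within a family of 40 or 45. The permutations ran freely over all libraries and did not account for the removed group means. Permutation p-values near 0.05 may therefore be too small. Levels per kilobase use the longest GENCODE transcript. No listed gene overlaps a member. Replicate numbers did not pair samples.

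The members and lists were chosen with earlier results of these data known. All members are named. From each other list the rule gave up to 4 called genes with the smallest p in a comparison, or up to 2 as values where none was called, and the text names part of them. For likeness it gave the 3 genes of highest r. Alternatives were a pseudocount of 5, no filter, TMM factors, compared groups only, the replicate block, region scores as covariates, a GC and length correction, edgeR, and leaving out libraries.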

Additional observations from a re-analysis of the deposited data

Results flagged for a closer look

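Among 110 groups of 4 or 5 libraries (10 members in 11 groups), a library stood apart from the rest of its group in 7, where about 1 in 20 would by chance. Replicate 5 of the HT fluoxetine males did so in 3 members. It had 2183 normalised counts of Syt6 (nearest library 949), 3814 of Etv1 (nearest 2822) and 1332 of Crym (nearest 2504). It is among the 14 libraries of highest olfactory bulb score. Syt6 also stood apart in WT vehicle male replicate 1 (1881, nearest 1119), which is among those 14 too. In HT lithium male replicate 3 Syt6 was 721 against a nearest value of 676, within a group that spans only 671 to 721. Etv1 was 3370 in HT vehicle female replicate 1 (nearest 2847), and Nr4a2 was 1023 in HT vehicle female replicate 5 (nearest 542).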

How the results depend on the processing

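No member was called in any of the 15 comparisons, and this count of 0 held in all 15 with a pseudocount of 5, no filter, TMM factors, the GC and length correction and edgeR. It changed under other settings. For lithium in HT, 1 member (Foxp2) was called with the compared groups only and 2 (Foxp2 and Etv1, -0.29, adjusted p = 0.0308) without the 14 most olfactory libraries. For fluoxetine in WT, the count was 1 with the olfactory covariate, 1 without the 14 libraries, 2 with olfactory and striatal covariates and 1 with the GC, length and olfactory correction. In the 3 settings with an olfactory covariate Syt6 turned to 0.287, 0.274 and 0.268 on the log2 scale, and Foxp2 was called at 0.40 in the second. Both genes are related to the olfactory bulb score, so this covariate was not independent of their values. The covariate settings joined with another were chosen after seeing the data. For the sex difference of the lithium effect in HT, 1 (Bcl11b, -1.20, adjusted p = 0.0423) was called without the 14 libraries. That cut left only replicates 1 and 5 of the HT lithium females, which had the highest Bcl11b of their group. Of the WT fluoxetine females it left only replicates 3 and 5. Members are themselves related to the score, so values after this cut partly follow from which libraries remained. For the sex difference of the fluoxetine effect in WT, 1 (Tle4) was called with the striatal covariate, 1 without the 2 libraries apart (HT vehicle female replicate 1 and HT lithium female replicate 5) and 1 with both covariates. Leaving out each library in turn gave 0 to 2 in that comparison and 0 in the other 14. Tle4 passed without HT fluoxetine female replicate 4, HT vehicle female replicate 1, WT fluoxetine female replicate 3, WT fluoxetine male replicate 3 or WT vehicle male replicates 2 or 3, and Tbr1 without WT fluoxetine female replicates 3 or 5 (adjusted p = 0.0355 and 0.0489). The cause was not tested.

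With the replicate block 0 members were called in each of the 15 comparisons. The numbers did not pair the samples: in none of the 14 pairs of groups did every same-numbered pair correlate above 0.1, and in 1 of them, HT lithium and vehicle males, all 3 libraries correlated best with their own number. The spread within groups limits what could be seen, most in Syt6 and Nr4a2.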

Other observations

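Relations with 4 further scores were chosen after values had been seen and are given as values, 40 in all over 56 libraries. The score of general cortical excitatory genes (Slc17a7, Camk2a, Neurod6 and others) was called with 10 of 10 members, 5 positively and 5 negatively. Tbr1 had r = 0.92 with it (rho 0.87), Fezf2 0.87 and Syt6 -0.87, each with an adjusted permutation p of 2.86e-05. The score of the 30 other deep-layer genes was called with 8 members, 6 positively, led by Tle4 at r = 0.83 (rho 0.83), and Foxp2 had r = -0.02 with it. Syt6 had r = -0.43 with the other deep-layer genes.

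The score of claustrum and endopiriform genes, regions at the deep border of the cortex where Nr4a2 is a known marker, was called with 6 members. Foxp2 had r = 0.71 (rho 0.68) and Nr4a2 r = 0.63 (rho 0.57). The immediate early score was called with 2 members, Nr4a2 at r = 0.50 (rho 0.55) and Etv1 at -0.29 (rho -0.33, adjusted permutation p = 0.0458). The Etv1 value lies close to the threshold, and the permutations did not account for the removed group means. With fluoxetine in WT mice, where 5.18% of all tested genes were called, 2 of 18 immediate early genes rose, Egr3 by 0.67 ± 0.11 on the log2 scale (SE, adjusted p = 0.000332 in limma-trend) and Maff by 0.62 ± 0.19 (adjusted p = 0.0433), while Nr4a2 stood at -0.03 ± 0.27 (adjusted p = 0.973). Gnb4, a G-protein subunit of the claustrum list, fell with lithium by 0.21 ± 0.07 in WT (adjusted p = 0.0266 in limma-trend) and by 0.26 ± 0.07 in HT (adjusted p = 0.0145). Of all tested genes 11.7% were called with lithium in WT and 9.77% in HT. The claustrum list as a whole was not tested.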
